A study of Saccharomyces cerevisiae with 8 samples.

Results

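The med10-1002 mutant of the budding yeast Saccharomyces cerevisiae was set against its parent strain in newly made RNA. The 2 med10-1002 libraries and the 2 parent libraries were taken by their genotype labels out of the 8 libraries of the series. All 6030 annotated transcripts entered, of which 5701 passed the filter on low counts and were tested. The med10-1002 strain is called J84 and the parent HS1004 in the labels. Both are labelled MATa and hsp82-, hold the DHSE-lacZ reporter gene, and carry trp1-1, a double mutation of leu2, his3-11,15, can1-100, cyh2r, ade- and ura3. The strains thus differ, per the labels, by the med10-1002 allele alone. The labels do not say what change in the gene the allele is, nor whether each library had a culture of its own. The p-values therefore speak for the spread of these libraries alone, part of which may be technical. Another strain of the same background, with the allele med21-1002 in another subunit, was used as a second comparison. The cultures were in YPD, a rich glucose medium, at 30 °C, and had reached an OD600 of 0.8 when 4-thiouracil was added at 5 mM. Over the next 6 min this analogue of uracil entered RNA as it was made, and the RNA that held it was then purified for sequencing.

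Mediator is a large protein complex that joins DNA-bound activators and repressors to RNA polymerase II at promoters. It is built of head, middle and tail modules and a separable kinase module. Med10 is an essential subunit of the middle module, as are Med7 and Med21, and the head and middle modules together contact the polymerase. The comparison addresses how this allele changes transcription across the genome.

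The 2 med10-1002 libraries held 21190842 and 19594321 counts assigned to transcripts, against 18409345 and 17595372 in the parent libraries. Values are counts relative to library size (CPM) after scaling by the trimmed mean of M values (TMM). They are relative to the other transcripts of a library, and spike-in reads were not analysed here. The 2 libraries of a strain differed from each other with an SD over transcripts of 0.221 in med10-1002, against 0.258 in parent (log2 scale). The transcript of the gene of Med10 was not analysed here, so it gives no check of the label. Genes that mark the mating types went in part against the MATa label in both strains. STE3, the receptor of alpha cells, had 320 and 296 CPM in med10-1002, against 396 and 348 CPM in parent. The alpha-factor gene MF(ALPHA)1 had 197 and 174 CPM in med10-1002, against 339.7 and 350 CPM in parent. MFA1, the a-factor gene of a cells, had 0.339 and 0.455 CPM in med10-1002 and 1.03 and 0.949 CPM in parent, and MFA2 had 0.339 and 0.354 CPM in med10-1002 and 0.702 and 0.838 CPM in parent. STE2, the receptor of a cells, had 59.9 and 58.7 CPM in med10-1002, against 20.6 and 20 CPM in parent, and BAR1, another a-cell gene, had 4.50 and 4.35 CPM in med10-1002, against 4.75 and 4.08 CPM in parent. Alpha-cell genes and STE2 were thus counted in both strains while the a-factor genes were near 0, and the label was not used further.

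At an adjusted p under 0.05 by edgeR's quasi-likelihood test with Benjamini-Hochberg adjustment, 2102 of 5701 transcripts differed between med10-1002 and parent, which is 36.9%. Of these, 1188 (20.8%) were higher and 914 (16%) were lower in med10-1002, and in each of them the 2 med10-1002 libraries lay beyond the 2 parent libraries. Changes of at least 2-fold were fewer and ran mostly upward, with 231 higher and 71 lower. Among the 231 were 101 coding transcripts and, of 3 noncoding classes, 81 SUTs (stable unannotated), 48 XUTs (sensitive to the nuclease Xrn1) and 1 CUT (cryptic unstable). Among the 71 were 38 coding transcripts, 8 SUTs, 11 XUTs and 14 CUTs. The number of calls rests on few libraries. It was 816 without med10-1002 replicate 1, 1263 without med10-1002 replicate 2, 1322 without parent replicate 1 and 939 without parent replicate 2, and 434 when all 8 libraries were fitted together. Each of the 2102 calls that was tested in these 5 fits kept its direction there. With the 2 med10-1002 libraries beyond the 2 parent libraries in each call, such a refit could hardly turn the sign. The kept direction is thus no added support.

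Among transcripts whose mean log2 CPM was 3 or more, SPS4 led the 15 coding transcripts with the largest rise. This gene, named for its transcription in sporulation, stood at 32.9 and 33.1 CPM in med10-1002, against 3.89 and 4.52 CPM in parent. Its log2 fold change (edgeR) was 2.97, SE 0.17, adjusted p = 6.53e-07. ULI1 (YFR026C) had 62.9 and 56.9 CPM in med10-1002, against 9.72 and 10.9 CPM in parent (log2 fold change 2.54, SE 0.14, adjusted p = 6.53e-07). A large change without overlap of the libraries was part of the rule that picked these transcripts. The lack of overlap held in every call, so it is no added support. RPL22B encodes the lesser of the paired copies of ribosomal protein L22. It had 168 and 171 CPM in med10-1002, against 38.3 and 42.7 CPM in parent, a 4.18-fold difference (log2 fold change 2.06, SE 0.14, adjusted p = 1.49e-06). Its paralog RPL22A had 248 and 214 CPM in med10-1002, against 177 and 156 CPM in parent, and rose 1.39-fold (adjusted p = 0.00265), a call lost without med10-1002 replicate 1 (adjusted p = 0.0671) or parent replicate 2 (adjusted p = 0.0612). Reads that match both copies could have been split between them. The RPL22B transcript spans chromosome VI, 64173 to 64974, minus strand, in the coordinates of the deposited annotation on genome build R64.

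NCA3, a cell wall protein gene of the SUN family, had 163 and 159 CPM in med10-1002, against 35.9 and 43.2 CPM in parent (log2 fold change 2.03, SE 0.13, adjusted p = 1.16e-06). HPA2, which encodes a histone acetyltransferase of the Gcn5-related family, had 120.1 and 113 CPM in med10-1002, against 34.4 and 36.7 CPM in parent (log2 fold change 1.72, SE 0.10, adjusted p = 6.82e-07). GIT1, the permease for glycerophosphoinositol, had 164 and 181 CPM in med10-1002, against 56.4 and 50.5 CPM in parent (log2 fold change 1.69, SE 0.10, adjusted p = 6.53e-07). These 3 genes lie on different chromosomes, and all were more than 3-fold higher in the mutant. THI21, a kinase gene of thiamine synthesis, had 136 and 132 CPM in med10-1002, against 42.4 and 40.6 CPM in parent (log2 fold change 1.69). PDH1, whose product acts in the breakdown of propionate, had 30.5 and 31.4 CPM in med10-1002, against 9.72 and 8.49 CPM in parent (log2 fold change 1.76). IMA1, an isomaltase gene, had 47.9 and 46.2 CPM in med10-1002, against 15.6 and 15.6 CPM in parent (log2 fold change 1.59). The remaining rises of this rank were in PAU23, a seripauperin gene, and in the little-studied YIR042C, YER076C, YIL059C, YHR210C and YCR095W-A, with log2 fold changes of 1.74, 2.05, 1.77, 1.74, 1.68 and 1.62.

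**Figure D1:**
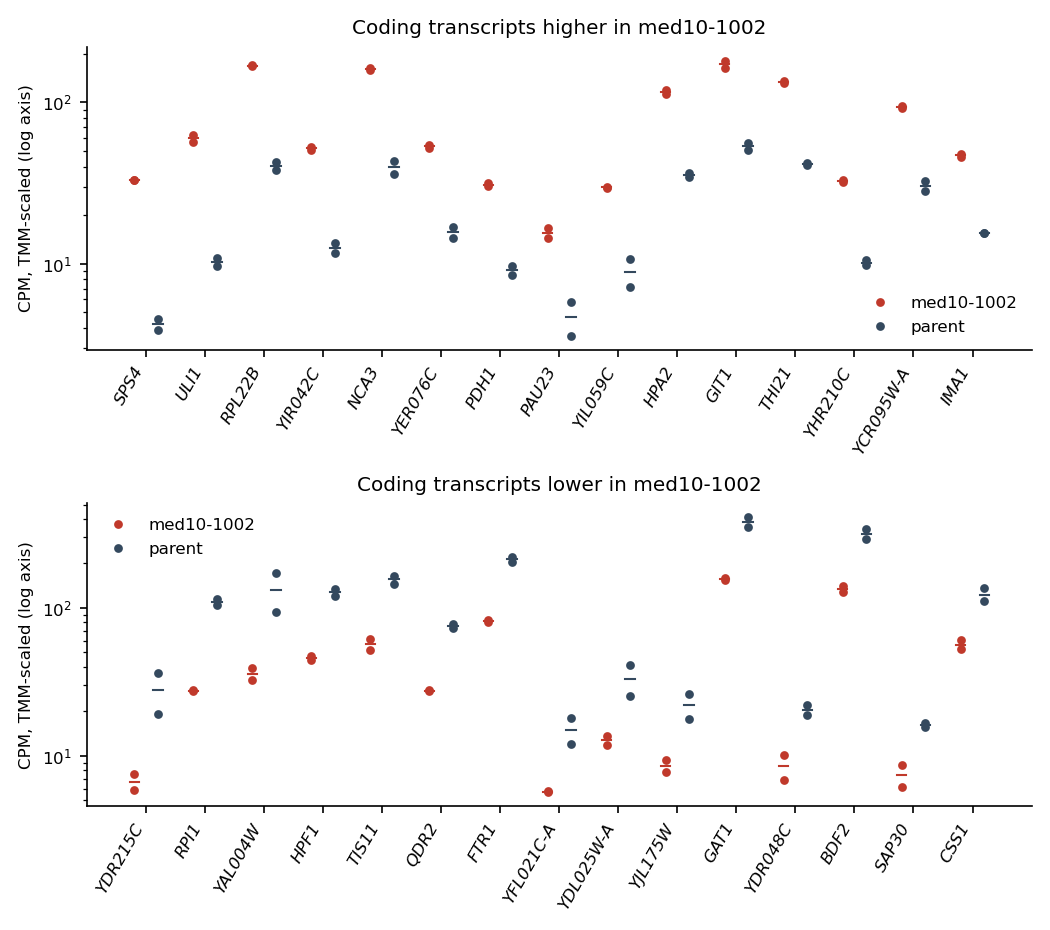
CPM on a log axis in each library (points) with the group mean (line), for the 15 coding transcripts with the largest rise (top) and the 15 with the largest fall (bottom), where the mean log2 CPM was 3 or more, in med10-1002 (red) against parent (dark). The 2 med10-1002 points of SPS4 sit at 32.9 and 33.1 CPM, above parent points at 3.89 and 4.52 CPM, and those of RPI1 sit at 27.8 and 27.5 CPM, below parent points at 104 and 115 CPM.

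Among the falls, RPI1 was the one with the smallest adjusted p. It encodes a putative transcriptional regulator with ties to Ras signalling, and had 27.8 and 27.5 CPM in med10-1002, against 104 and 115 CPM in parent (log2 fold change -1.99, SE 0.10, adjusted p = 4.05e-07). HPF1, a mannoprotein gene of the cell wall, had 47.6 and 44.5 CPM in med10-1002, against 121 and 134 CPM in parent (log2 fold change -1.47, SE 0.10, adjusted p = 1.95e-06). BDF2 encodes one of the pair of bromodomain proteins that bind acetylated histones and TFIID. It had 129 and 142 CPM in med10-1002, against 293 and 342 CPM in parent (log2 fold change -1.23, SE 0.09, adjusted p = 3.3e-06). QDR2, a drug efflux pump gene, had 27.4 and 27.8 CPM in med10-1002, against 77.3 and 73.7 CPM in parent (log2 fold change -1.45). SAP30, a subunit gene of the Rpd3 histone deacetylase complex, had 6.10 and 8.60 CPM in med10-1002, against 15.8 and 16.6 CPM in parent (log2 fold change -1.14). CSS1 had 52.6 and 60.4 CPM in med10-1002, against 111 and 136 CPM in parent (log2 fold change -1.12). All 6 of these transcripts, picked by the same rule, were more than 2-fold lower in the mutant.

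Of the 15 largest coding falls above that level, 6 came from little-studied reading frames that face another gene on the opposite strand over much of their length. YDR215C faces AHA1, YAL004W faces SSA1, YFL021C-A faces GAT1, YDL025W-A faces RTK1, YJL175W faces SWI3 and YDR048C faces HEM12 and VMS1. Their log2 fold changes were -2.06, -1.89, -1.39, -1.39, -1.36 and -1.26. The parent libraries of YDR215C also differed from each other, with 5.86 and 7.49 CPM in med10-1002, against 19.2 and 36.4 CPM in parent. The strand setting of the counting is not given in the sources used here, so reads of these transcripts and of their opposite partners cannot be told apart with certainty. Of the partners, GAT1 and AHA1 fell as well, with values given below. SSA1 was not called, with a log2 fold change of 0.09 (adjusted p = 0.492). RTK1, SWI3, HEM12 and VMS1 are not reported here.

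The medians of the noncoding classes lay in different directions. SUTs and XUTs are transcripts that code for no known protein, SUTs being stable in wild-type cells and XUTs being destroyed by the exonuclease Xrn1, while CUTs are destroyed in the nucleus by the exosome. Of 369 SUTs tested, 164 (44.4%) rose and 20 fell in med10-1002, with a median log2 fold change of 0.53, beside a median of 0.02 over all transcripts tested. The median was 0.49 in med10-1002 library 1 and 0.54 in med10-1002 library 2, each taken against the parent mean. Of 334 XUTs, 83 (24.9%) rose and 22 fell, with a median of 0.29. The CUT median lay the other way, at -0.45. Of 101 CUTs, 2 (1.98%) rose and 17 (16.8%) fell, beside 20.8% and 16% of all transcripts tested. The share of CUTs that fell was thus near that of all transcripts, while few rose. Of 4897 coding transcripts, 939 (19.2%) rose and 855 (17.5%) fell. A further 131 SUTs, 99 XUTs and 68 CUTs did not pass the filter on low counts. Of the SUTs tested, 346 had at least 10 counts in both parent libraries, and of these 162 rose and 19 fell. With all 8 libraries in the fit, 57 SUTs and 17 XUTs rose, 1 SUT and 2 XUTs fell, and 0 of 110 CUTs rose or fell, with medians of 0.49 for SUTs, 0.27 for XUTs and -0.48 for CUTs. Between 110 and 125 SUTs rose when any 1 of the 4 med10-1002 and parent libraries was left out, the lowest without med10-1002 replicate 1. The number of SUTs that fell was 3 without med10-1002 replicate 1, 11 without med10-1002 replicate 2 and 6 without parent replicate 2. Between 42 and 52 XUTs rose without 1 of the 4 libraries, the lowest again without med10-1002 replicate 1, and their median was 0.16 without med10-1002 replicate 2. The number of XUTs that fell was 4 without med10-1002 replicate 1 or parent replicate 2 and 11 without med10-1002 replicate 2. The number of CUTs that fell was 1 without med10-1002 replicate 1 or parent replicate 2 and 5 without med10-1002 replicate 2. The CUT median was -0.26 with a correction for length, -0.30 without med10-1002 replicate 1, -0.61 without med10-1002 replicate 2 and -0.22 without parent replicate 2. Coding transcripts gave 411 to 606 higher and 245 to 522 lower.

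SUT674 (chromosome XI, 341222 to 342110, minus strand), opposite SFK1, had the largest rise of the noncoding transcripts whose mean log2 CPM was 3 or more. It had 86.2 and 78.9 CPM in med10-1002, against 11.7 and 12.9 CPM in parent (log2 fold change 2.75, SE 0.12, adjusted p = 2.52e-07), the smallest p of all transcripts tested. SUT065, opposite MTH1, a repressor gene of hexose transport, had 93.8 and 78 CPM in med10-1002, against 24.9 and 18.1 CPM in parent (log2 fold change 1.99). SUT430 had 21.4 and 22.9 CPM in med10-1002, against 5.88 and 5.30 CPM in parent (log2 fold change 1.98). SUT637 had 19.5 and 17.1 CPM in med10-1002, against 4.91 and 5.08 CPM in parent (log2 fold change 1.87). All 4 were more than 3-fold higher in the mutant. Above the same level, the largest noncoding falls were those of XUT_13F-137, opposite SOK2, with a log2 fold change of -1.66, and of XUT_5R-168, SUT163 and SUT485, with -1.39, -1.31 and -1.25. SUT163 lies opposite HXT1, which had a log2 fold change of 0.07 (adjusted p = 0.635). SUT485 lies opposite ARO10, which had 2160 and 2109 CPM in med10-1002, against 2603 and 2555 CPM in parent (adjusted p = 0.255).

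The shift of the SUTs grew with their length. The median log2 fold change was -0.06 over 47 SUTs of up to 500 nt and 0.82 over 45 SUTs of 2001 to 3000 nt, of which 34 (75.6%) rose. In the range of 501 to 1500 nt, 82 of 209 SUTs (39.2%) rose and 10 fell, beside 376 of 2458 coding transcripts (15.3%) that rose and 464 that fell. The SUTs without an annotated transcript on the opposite strand had a median of 0.61 (57 of 118 rose), and those that overlap one had 0.39 (107 of 251 rose). Of the 164 SUTs that rose, 88 lay opposite at least 1 tested coding transcript. Of their 106 coding partners, 23 (21.7%) rose and 11 (10.4%) fell, with a median log2 fold change of 0.04, beside 20.8% and 16% of all transcripts tested. The share of reads assigned to no annotated transcript was 34.7% and 34.7% in med10-1002, against 32.7% and 33.5% in parent, and its part in the shift of the SUTs was not tested.

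**Figure D2:**
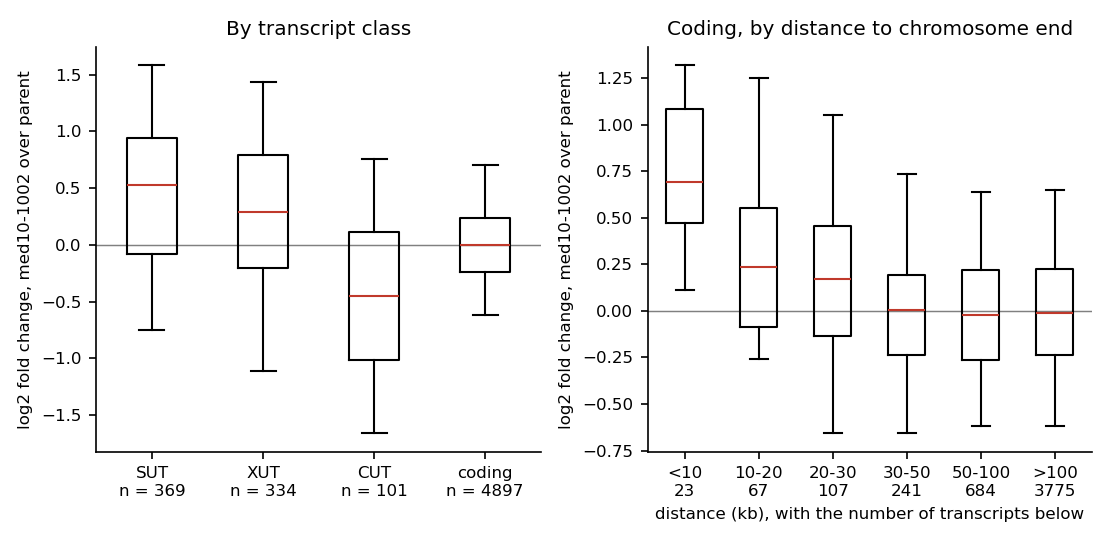
Log2 fold change of med10-1002 over parent by transcript class (left) and, for coding transcripts, by distance to the nearer chromosome end in kb (right), with boxes for the quartiles, red lines for the medians and whiskers from the 5th to the 95th percentile. The SUT median lies at 0.53 and the CUT median at -0.45, and the median of the 23 coding transcripts within 10 kb of an end lies at 0.69.

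**Figure D3:**
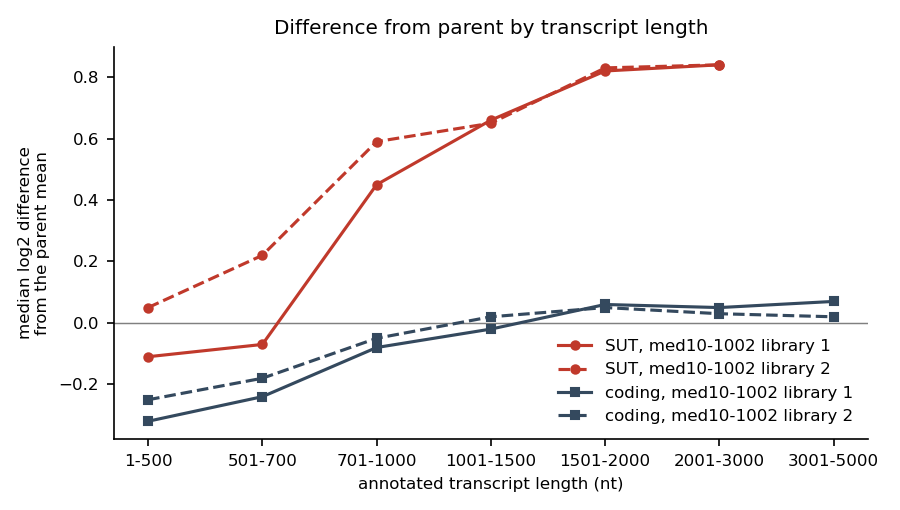
Median log2 difference of each med10-1002 library from the parent mean, by annotated transcript length, for SUTs (red circles) and coding transcripts (dark squares). Both libraries rise with SUT length to 0.84 in each at 2001 to 3000 nt, and coding transcripts of up to 500 nt lie at -0.32 and -0.25.

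Short coding transcripts had lower medians in the mutant and rose less often than others. Of 151 coding transcripts of up to 500 nt, 6 (3.97%) rose and 28 (18.5%) fell, with a median log2 fold change of -0.29. Of 391 coding transcripts of 501 to 700 nt, 19 (4.86%) rose and 86 (22.0%) fell, with a median of -0.23. Over all coding transcripts 19.2% rose and 17.5% fell. The shares of short transcripts that fell were thus near or somewhat above that of all, while few rose. Those of 1501 to 2000 nt had a median of 0.06, and 261 of 983 rose. Both med10-1002 libraries showed this slope, as the plot by transcript length shows. Length thus ran along with the results for groups of short transcripts, and counts or medians from a fit with a correction for length are given beside many of the groups.

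Coding transcripts near chromosome ends were higher in the mutant. Of the 23 tested within 10 kb of an end, 18 (78.3%) rose and 0 fell by edgeR, with a median log2 fold change of 0.69. At an unadjusted p under 0.05 the counts were 18 and 1, and by DESeq2 18 and 0. Between 10 and 20 kb, 26 of 67 rose and 6 fell (median 0.24), and beyond 100 kb 685 of 3775 rose and 671 fell (median -0.01). YIR042C, named above, lies in the first range. FRE2, a ferric reductase gene, had 194 and 184 CPM in med10-1002, against 78.8 and 72.7 CPM in parent (log2 fold change 1.32, SE 0.10, adjusted p = 2.86e-06). BDS1, a sulfatase gene, had 304 and 284 CPM in med10-1002, against 131 and 120 CPM in parent (log2 fold change 1.23, SE 0.09, adjusted p = 2.64e-06). The maltose permease gene MAL31 had 189.5 and 193 CPM in med10-1002, against 108 and 102 CPM in parent (log2 fold change 0.87). BDS1 and MAL31 were chosen after their values were seen, as were the other genes named here from outside the rule for named genes. IMD2, FET4, COS8, MIX23 and YEL073C were not called, and IMD2 had a log2 fold change of -0.46 (adjusted p = 0.0723). With all 8 libraries in the edgeR fit, 5 of the 23 rose and 0 fell (median 0.67), and without med10-1002 replicate 1, 12 rose and 0 fell.

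Genes under nitrogen control rose more often than transcripts as a whole. In rich nitrogen these genes are held low, and the GATA factors Gln3 and Gat1 activate them while Gzf3 and Dal80 repress them through GATAAG letters in the promoter. Of 20 listed genes tested, 10 rose and 4 fell (median log2 fold change 0.28). The promoters of 3 of the risers are shown for their GATAAG matches, which stand in capitals on either strand (CTTATC is the same motif on the other strand). Each stretch ends at the base before the annotated transcript start and is written 5′ to 3′ in the direction of the gene, from the R64 genome sequence of RefSeq. They cover chrX:211667-211849 (minus strand), chrIX:410526-410677 (plus strand) and chrX:719255-719428 (plus strand).
GZF3: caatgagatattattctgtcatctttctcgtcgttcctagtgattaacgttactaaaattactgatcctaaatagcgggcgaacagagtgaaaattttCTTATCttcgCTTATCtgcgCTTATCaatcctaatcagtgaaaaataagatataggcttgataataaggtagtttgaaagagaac
DAL2: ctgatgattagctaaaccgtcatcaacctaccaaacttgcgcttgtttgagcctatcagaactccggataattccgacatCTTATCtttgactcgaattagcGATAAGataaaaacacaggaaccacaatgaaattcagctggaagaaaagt
DAL5: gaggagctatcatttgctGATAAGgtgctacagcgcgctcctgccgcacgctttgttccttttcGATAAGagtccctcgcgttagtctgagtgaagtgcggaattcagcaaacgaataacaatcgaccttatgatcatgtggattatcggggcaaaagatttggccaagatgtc
In the 300 bases before the start, GATAAG on either strand was found in 16 of the 20 listed genes (80.0%), beside 703 of all 4897 coding transcripts tested (14.4%) and 15.1% of the coding transcripts that rose. DUR3, which also rose, had 0 matches in the 47 bases read before its start.

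GZF3 had 389 and 391 CPM in med10-1002, against 125 and 136 CPM in parent, 2.99-fold higher (log2 fold change 1.58, SE 0.09, adjusted p = 6.53e-07). The activator gene GAT1 had 153 and 159 CPM in med10-1002, against 355 and 412 CPM in parent (log2 fold change -1.29, SE 0.09, adjusted p = 2.41e-06). Repressor and activator thus changed in opposite directions. GLN3 had 256 and 254 CPM in med10-1002, against 281 and 303 CPM in parent, and was not called (log2 fold change -0.20, adjusted p = 0.0769). Of the targets, DAL2, an enzyme gene of allantoin breakdown, had 36.6 and 37.9 CPM in med10-1002, against 13.2 and 11.7 CPM in parent (log2 fold change 1.58). The urea permease gene DUR3 had 253 and 239 CPM in med10-1002, against 114 and 108 CPM in parent (log2 fold change 1.15). DAL5, the allantoate permease gene, had 97.8 and 93 CPM in med10-1002, against 45.5 and 44.1 CPM in parent (log2 fold change 1.09). The 3 genes were 2-fold to 3-fold higher. The ammonium permease genes split: MEP2 had a log2 fold change of 1.07 (adjusted p = 8.95e-06), while MEP1 and MEP3 had -0.48 (adjusted p = 0.00166) and -0.60 (adjusted p = 0.00038). CAN1, the arginine permease gene, of which both strains carry the can1-100 allele, had 772 and 766 CPM in med10-1002, against 336 and 331 CPM in parent (log2 fold change 1.21). DAL2, DAL5, GLN3, MEP1, MEP2 and MEP3 were named after their values were seen. Between 7 and 9 of the 20 genes rose, and 3 fell, when any 1 med10-1002 or parent library was left out.

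The counts for genes of carbon use stand beside 20.8% higher and 16% lower over all transcripts tested. Of 18 genes of the tricarboxylic acid cycle, 12 (66.7%) rose and 1 fell (median log2 fold change 0.42). ACO1, aconitase, had 1158 and 1028 CPM in med10-1002, against 622 and 559.7 CPM in parent (log2 fold change 0.89, SE 0.10, adjusted p = 6.06e-05). IDH1, a subunit of isocitrate dehydrogenase, CIT2, the peroxisomal citrate synthase, and FUM1, fumarase, had log2 fold changes of 0.74, 0.76 and 0.63. Of 25 genes of glycolysis and fermentation, 11 rose and 1 fell, or 12 and 2 with a correction for length (median 0.28 in both), among them TDH2 (0.62), PGK1 (0.51), ADH4 (1.23) and ENO1 (0.39). Of 7 hexose transporter genes, 4 rose and 0 fell by edgeR (5 and 0 at an unadjusted p under 0.05, 4 and 0 by DESeq2). HXT4, a transporter gene induced at low glucose, had 296 and 284 CPM in med10-1002, against 107 and 102 CPM in parent (log2 fold change 1.47, SE 0.11, adjusted p = 2.77e-06). HXT2 and HXT7 had log2 fold changes of 0.98 and 0.86, HXT3 had 0.40, and the low-affinity HXT1 was not called. In the galactose pathway, GAL1, GAL7, GAL10 and GAL3 rose and GAL4 and GAL80 were not called, which is 4 higher and 0 lower of 6 by edgeR, by DESeq2 and at an unadjusted p under 0.05. GAL1, galactokinase, had 54.3 and 45.9 CPM in med10-1002, against 23.4 and 22.3 CPM in parent (log2 fold change 1.13, SE 0.14, adjusted p = 8.65e-05), and GAL7 had 6.49 and 7.89 CPM in med10-1002, against 2.16 and 2.01 CPM in parent. As in every call of a rise, both libraries of the mutant lay above both of the parent. With all 8 libraries in the fit, 3 of the 18 cycle genes, 1 of the 25 glycolytic genes, 3 hexose transporter genes and 3 galactose genes rose. In that fit 283 of all 5746 transcripts rose, a share near that of the glycolytic genes. The glycolytic count rests on the libraries most, with 1 gene higher without med10-1002 replicate 1 or parent replicate 2, and 5 without parent replicate 1. Cycle genes higher fell in number to 8 without med10-1002 replicate 1. The calls of HXT3, TDH2, PGK1 and ENO1 were lost without med10-1002 replicate 1 (adjusted p = 0.128, 0.0607, 0.111 and 0.129) and without parent replicate 2 (adjusted p = 0.16, 0.052, 0.0965 and 0.113).

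In the main fit, the genes of ribosomes and of their assembly went opposite ways. Over all transcripts tested, 20.8% rose and 16% fell. Of 79 large-subunit ribosomal protein genes, 42 rose and 0 fell by edgeR (median log2 fold change 0.31), with 52 and 0 at an unadjusted p under 0.05 and 43 and 0 by DESeq2. Of 55 small-subunit genes, 27 rose and 1 fell (median 0.28). Apart from RPL22B, RPL28 and RPS9A rose most among the members named by rule. RPL28, the gene of the cyh2r allele that both strains carry, had 368 and 311 CPM in med10-1002, against 166 and 162 CPM in parent (log2 fold change 1.05, SE 0.12, adjusted p = 4.91e-05). RPS9A had 216 and 208 CPM in med10-1002, against 105 and 102 CPM in parent (log2 fold change 1.04, SE 0.08, adjusted p = 3.48e-06). RPL7A and RPL2B had log2 fold changes of 0.81 and 0.63, and RPS4B and RPS17B had 0.77 and 0.72. Many of these genes are near-identical pairs whose reads could have been split. With all 8 libraries in the fit, 5 large-subunit and 7 small-subunit genes rose, beside 283 of all 5746 transcripts tested. Fewer of these genes, and fewer of all transcripts, rose without med10-1002 replicate 1 or parent replicate 2. Against the parent mean, the large-subunit median was 0.40 in med10-1002 library 1 and 0.23 in library 2. The small-subunit medians were 0.38 and 0.24.

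Of 93 ribosome assembly genes, 4 rose and 34 (36.6%) fell, with a median log2 fold change of -0.17. Promoters of such genes often hold the PAC letters GATGAG, which stand in capitals on either strand (CTCATC on the other) in 3 genes that fell. RRP36 was chosen after its values were seen. The stretches cover chrI:101169-101414 (minus strand), chrXI:282380-282629 (minus strand) and chrXV:851862-851970 (minus strand).
MAK16: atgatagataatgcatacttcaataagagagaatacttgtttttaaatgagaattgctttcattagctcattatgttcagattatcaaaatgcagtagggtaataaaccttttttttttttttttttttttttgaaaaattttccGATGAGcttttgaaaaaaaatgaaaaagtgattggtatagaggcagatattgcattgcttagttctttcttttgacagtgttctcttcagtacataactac
RRP14: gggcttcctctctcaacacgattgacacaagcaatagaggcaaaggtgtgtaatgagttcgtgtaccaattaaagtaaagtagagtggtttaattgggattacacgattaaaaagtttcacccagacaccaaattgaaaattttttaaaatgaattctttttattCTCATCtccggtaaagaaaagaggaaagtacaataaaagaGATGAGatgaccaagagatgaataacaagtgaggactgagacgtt
RRP36: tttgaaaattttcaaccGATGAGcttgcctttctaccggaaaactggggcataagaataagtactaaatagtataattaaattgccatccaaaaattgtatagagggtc
GATGAG on either strand was found within 300 bases before the start in 84 of the 93 genes (90.3%), beside 20.9% of all coding transcripts tested and 25% of the coding transcripts that fell. A second motif of these genes, AAAAATTT on either strand, was found in 84.9% of the 93 and in 17.4% of all. MAK16, a 60S assembly factor, had 92.8 and 95 CPM in med10-1002, against 159.8 and 183 CPM in parent (log2 fold change -0.87, SE 0.10, adjusted p = 7.24e-05). RRP14 had 182 and 207 CPM in med10-1002, against 291 and 332 CPM in parent (log2 fold change -0.68, SE 0.11, adjusted p = 0.000591). RRP36, of the early 40S path, had 10.2 and 11.3 CPM in med10-1002, against 17.4 and 20.6 CPM in parent (log2 fold change -0.82, SE 0.16, adjusted p = 0.00235). As in every call of a fall, both med10-1002 libraries lay below both parent libraries in all 3. BUD22 and EBP2 had log2 fold changes of -0.70 and -0.61, and BUD22 had 0 GATGAG matches in the 40 bases read before its start. Fewer of all transcripts fell when 1 med10-1002 or parent library was left out, and with all 8 libraries in the fit 151 of 5746 fell. Of the 93 assembly genes, 3 fell with all 8 libraries, a share near that of all. The number that fell was 11 without med10-1002 replicate 1, 19 without med10-1002 replicate 2, 21 without parent replicate 1 and 13 without parent replicate 2, and the call of RRP36 was lost in the first of these (adjusted p = 0.051).

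Beside 16% lower and 20.8% higher over all transcripts tested, 21 of 63 mitochondrial ribosomal protein genes (33.3%) fell and 0 rose by edgeR. Their median log2 fold change was -0.31. At an unadjusted p under 0.05, 28 fell and 0 rose, and by DESeq2 22 fell and 0 rose. Their median annotated length was 820 nt, beside 1348 nt over all transcripts tested. With a correction for length, 19 fell, 1 rose and the median was -0.20. With all 8 libraries in the fit, 151 of all 5746 transcripts fell, and 1 of the 63 genes did. The number that fell was 3 without med10-1002 replicate 1, 9 without med10-1002 replicate 2, 10 without parent replicate 1 and 6 without parent replicate 2. MRPS17, a small-subunit member, had 21.6 and 26.7 CPM in med10-1002, against 49.5 and 55.3 CPM in parent (log2 fold change -1.12, SE 0.17, adjusted p = 0.000415). RSM27 had 12.7 and 14.8 CPM in med10-1002, against 22 and 27.3 CPM in parent (log2 fold change -0.84), MRP8 had a log2 fold change of -0.55, and MRPL16 had -0.62, whose call was lost without med10-1002 replicate 1 (adjusted p = 0.0601). Of 33 genes of RNA polymerase II and the general transcription factors, 1 rose and 10 fell (median -0.19, or -0.12 with the correction for length). TOA1, the large subunit of TFIIA, had 53.5 and 60.5 CPM in med10-1002, against 98.8 and 103 CPM in parent (log2 fold change -0.82, SE 0.13, adjusted p = 0.000516). RPB5, a polymerase subunit, and SUA7, which encodes TFIIB, had log2 fold changes of -0.57 and -0.45, and the 1 gene that rose was TFA2, a TFIIE subunit (0.55). The number that fell was 2 without med10-1002 replicate 1, 7 without med10-1002 replicate 2, 3 without parent replicate 1 and 2 without parent replicate 2. The call of SUA7 was lost without med10-1002 replicate 1 or parent replicate 2 (adjusted p = 0.0865 and 0.0696), and that of TFA2 without med10-1002 replicate 2 or parent replicate 2 (adjusted p = 0.0719 and 0.0771).

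**Figure D4:**
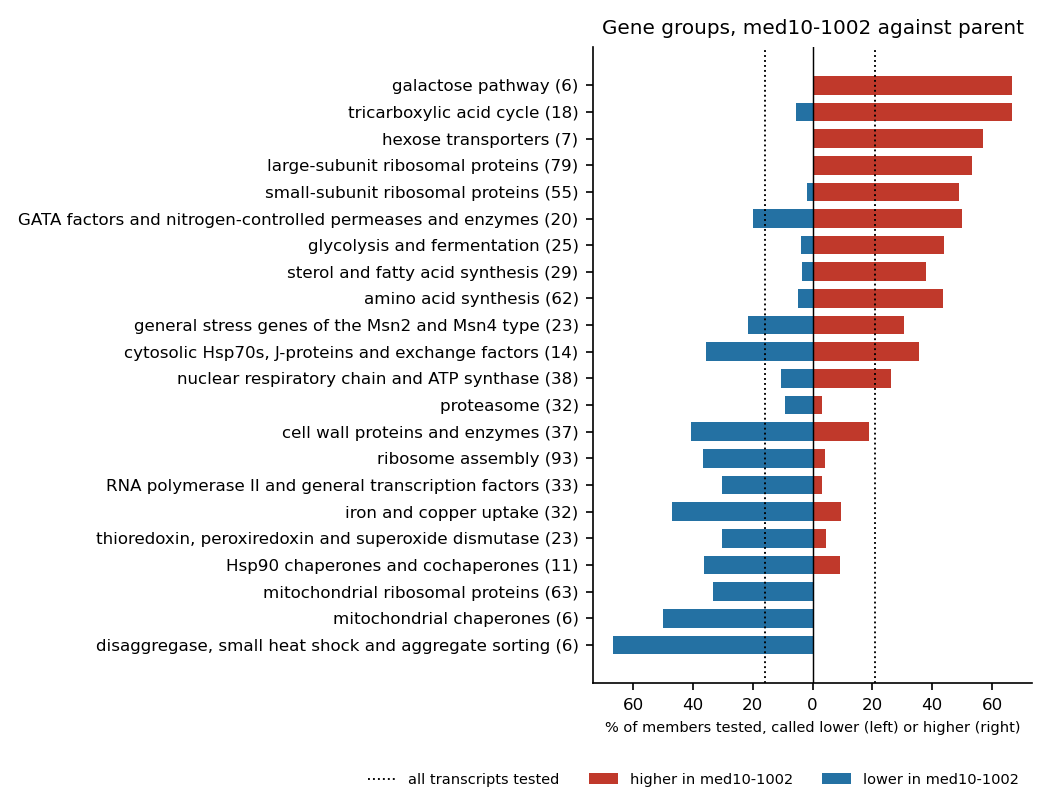
Share of the tested members of 22 gene groups called lower (blue, left) or higher (red, right) in med10-1002 than in parent, with the number tested in brackets and dotted lines at the shares of all transcripts tested, 16% lower and 20.8% higher. The galactose group stands at 66.7% higher and the disaggregase group at 66.7% lower, each over 6 genes.

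Of 6 genes of the disaggregase, small heat shock protein and aggregate sorting group, CUR1, HSP42, BTN2 and HSP31 fell, and HSP104 and HSP26 were not called. These 4 fell without any 1 of the med10-1002 or parent libraries, and 2 of them with all 8 libraries in the fit. CUR1 and HSP42 are shown for a match to the heat shock element, the motif bound by the heat shock factor Hsf1, GAANNTTC, a palindrome, which stands in capitals. It was found within 300 bases before the start in 4 of the 6 genes and in 12.8% of all coding transcripts tested. The share was 13.2% of the coding transcripts that fell. BTN2, which also fell, had 0 matches in the 197 bases read before its start. The stretches cover chrXVI:842945-843194 (plus strand) and chrIV:806285-806534 (plus strand).
CUR1: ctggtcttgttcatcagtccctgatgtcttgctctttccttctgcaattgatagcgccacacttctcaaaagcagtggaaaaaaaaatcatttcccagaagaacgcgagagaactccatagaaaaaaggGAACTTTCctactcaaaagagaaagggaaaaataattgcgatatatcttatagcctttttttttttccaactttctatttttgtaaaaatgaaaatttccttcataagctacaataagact
HSP42: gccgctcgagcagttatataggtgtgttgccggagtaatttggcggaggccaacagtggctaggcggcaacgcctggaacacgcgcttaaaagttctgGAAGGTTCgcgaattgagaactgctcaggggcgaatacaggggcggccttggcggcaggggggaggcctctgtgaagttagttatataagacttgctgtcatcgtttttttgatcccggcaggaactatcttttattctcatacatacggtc
CUR1, which sorts misfolded proteins to the nucleus, had 233 and 254 CPM in med10-1002, against 454 and 443 CPM in parent (log2 fold change -0.88, SE 0.08, adjusted p = 1.26e-05). HSP42, the small heat shock protein that gathers aggregates in the cytosol, had 1675 and 1635 CPM in med10-1002, against 2914 and 2971 CPM in parent (log2 fold change -0.83, SE 0.09, adjusted p = 5.33e-05). HSP104, the disaggregase, had 6916 and 6605 CPM in med10-1002, against 7936 and 7886 CPM in parent (log2 fold change -0.23, adjusted p = 0.111).

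Of the Hsp70 system, the nucleotide exchange factor FES1 fell to 789 and 826 CPM in med10-1002, against 1388 and 1368 CPM in parent (log2 fold change -0.77, SE 0.10, adjusted p = 0.000158), and the J-protein genes SIS1 and APJ1 had log2 fold changes of -0.65 and -0.59. Over all transcripts tested, 20.8% rose and 16% fell, beside which the counts of the chaperone groups stand. The ribosome-bound Hsp70 gene SSB1 rose (0.71), and over the 14 genes 5 (35.7%) rose and 5 (35.7%) fell. Those numbers were 2 and 3 without med10-1002 replicate 1 or parent replicate 2, 3 and 3 without med10-1002 replicate 2 or parent replicate 1, and 0 and 3 with all 8 libraries. Of 11 Hsp90 and cochaperone genes 1 rose and 4 fell, against 0 and 2 without med10-1002 replicate 1 or parent replicate 2 and with all 8 libraries, and 1 and 7 with the correction for length. STI1, which joins Hsp70 to Hsp90, had 1815 and 1724 CPM in med10-1002, against 2829 and 2847 CPM in parent (log2 fold change -0.68, SE 0.09, adjusted p = 0.000193). AHA1, an activator of Hsp90, and CNS1, a cochaperone, had log2 fold changes of -0.53 and -0.40, and the phosphatase PPT1 rose (0.50). HSP82 was counted at 5428 and 5248 CPM in med10-1002, against 5999 and 5947 CPM in parent, although both genotypes read hsp82-, and was not called (adjusted p = 0.232). Its copy HSC82 had a log2 fold change of 0.06 (adjusted p = 0.709), and reads could have been split between the pair. Of 6 mitochondrial chaperone genes 3 fell and 0 rose by edgeR, by DESeq2 and at an unadjusted p under 0.05, with HSP10 at a log2 fold change of -0.61, HSP78 at -0.49 and MDJ1 at -0.47. SSC1, HSP60 and MGE1 were not called (-0.05, -0.17 and -0.10). The calls of HSP10 and MDJ1 were lost without med10-1002 replicate 1 (adjusted p = 0.144 and 0.0661) and without parent replicate 2 (adjusted p = 0.0607 and 0.0552), and that of HSP10 also without parent replicate 1 (adjusted p = 0.0668). The general stress genes did not move as 1 group: 7 of 23 (30.4%) rose and 5 (21.7%) fell, beside 20.8% and 16% of all transcripts tested. CTT1, catalase T, stood at 0.55, ALD2 at 0.74, YGP1 at 0.47 and PNC1 at -0.66. The next refits give general stress genes higher and lower. Without parent replicate 2 the numbers were 2 and 2, and without med10-1002 replicate 1 they were 3 and 1. The calls of ALD2, CNS1 and PPT1 ended without med10-1002 replicate 1 or parent replicate 2 (adjusted p of 0.06 to 0.0765).

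Of 32 genes of iron and copper uptake, 15 (46.9%) fell and 3 (9.38%) rose (median log2 fold change -0.20), beside 16% and 20.8% of all transcripts tested. FTR1, the permease of the high-affinity iron uptake system, had 82.3 and 79.8 CPM in med10-1002, against 219.8 and 206 CPM in parent (log2 fold change -1.39, SE 0.10, adjusted p = 2.41e-06). TIS11 encodes a protein that binds and destabilises messenger RNAs when iron is scarce. It had 51.7 and 61.6 CPM in med10-1002, against 146 and 166 CPM in parent (log2 fold change -1.46, SE 0.11, adjusted p = 3.19e-06). FET3, the oxidase that works with Ftr1, had 429.5 and 378 CPM in med10-1002, against 588 and 583 CPM in parent (log2 fold change -0.54). FRE4, a reductase gene, had a log2 fold change of -1.01, and FRE2, named above near a chromosome end, ran the other way. Between 10 and 13 genes fell and 3 rose when any 1 med10-1002 or parent library was left out, and 8 fell and 2 rose with all 8 libraries in the fit. Of 23 redox genes 1 rose and 7 fell (3 without med10-1002 replicate 1 or either parent library), with a median of -0.21, or -0.14 with the correction for length, and with SOD1, superoxide dismutase, at -0.70, TRX2, a thioredoxin gene, at -0.66, TRR1 at -0.47 and GSH1 at -0.39. The call of GSH1 ended on leaving out any 1 of the 4 med10-1002 and parent libraries (adjusted p of 0.0504 to 0.0967).

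Beside 20.8% higher and 16% lower over all transcripts tested, 4 of 9 genes of meiosis and sporulation rose and 0 fell by edgeR. The counts were 5 and 1 at an unadjusted p under 0.05, and 4 and 0 by DESeq2. Besides SPS4, IME2, the kinase that drives entry into meiosis, had 115 and 107 CPM in med10-1002, against 40.5 and 40.8 CPM in parent (log2 fold change 1.45, SE 0.11, adjusted p = 2.69e-06). RED1, of the meiotic chromosome axis, had 205 and 200.2 CPM in med10-1002, against 88.9 and 86.6 CPM in parent (log2 fold change 1.21, SE 0.09, adjusted p = 2.64e-06), and DIT1, of the spore wall, rose by 0.57 on the log2 scale. Of the a-cell genes, STE2, whose values are given above, rose (log2 fold change 1.55, SE 0.12, adjusted p = 3.48e-06), while BAR1 was not called (0.00), nor was ASG7 (-0.15). Of the alpha-cell genes, MF(ALPHA)1 and AFB1 fell (-0.89 and -0.56), STE3 passed narrowly (-0.27, adjusted p = 0.0491, and 0.0758 to 0.352 without any 1 of the med10-1002 or parent libraries) and SAG1 did not (-0.30, adjusted p = 0.0686). FUS1, a gene of mating cell fusion, had 18.4 and 19.8 CPM in med10-1002, against 38.6 and 44 CPM in parent (log2 fold change -1.11). In these bulk cultures fewer cells of a type and less RNA per cell cannot be told apart. The call of DIT1 ended on leaving out any 1 of the 4 med10-1002 and parent libraries (adjusted p of 0.0699 to 0.199).

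Among the Mediator genes, MED1, of the middle module, had 201 and 204 CPM in med10-1002, against 131 and 124 CPM in parent (log2 fold change 0.67, SE 0.08, adjusted p = 0.000122). Also of the middle module, SOH1 (Med31), ROX3 (Med19) and MED7 fell, with log2 fold changes of -0.70, -0.49 and -0.45. SRB7, the gene of Med21, was not called (-0.52, adjusted p = 0.0528), nor were MED4 (0.16), CSE2 (-0.19) and NUT1 (-0.11), a tail subunit gene in some accounts. Of 7 head module genes, SRB2 (Med20) rose (0.53) and 0 fell by edgeR, by DESeq2 and at an unadjusted p under 0.05, while SRB4, SRB5, SRB6, MED6, MED8 and MED11 lay between -0.52 and 0.30 and were not called. Of 5 genes of the tail, the kinase module and the scaffold, SSN8, cyclin C, rose (0.47), MED2 fell (-0.45), and RGR1, SIN4 and SSN3 lay between -0.07 and 0.11 and were not called. The calls of MED7 and SRB2 were lost without any 1 of the med10-1002 or parent libraries (adjusted p of 0.0848 to 0.113 and of 0.075 to 0.138). Those of ROX3 and MED2 were lost without med10-1002 replicate 1 (adjusted p = 0.131 and 0.0661) or parent replicate 2 (adjusted p = 0.0823 and 0.0696), and that of SOH1 without parent replicate 2 (adjusted p = 0.055). The loci of the genotype markers also differed. LEU2 had 171 and 165 CPM in med10-1002, against 65 and 68 CPM in parent (log2 fold change 1.34, SE 0.08, adjusted p = 1.06e-06), and URA3 had 58.9 and 58.3 CPM in med10-1002, against 89.2 and 90.9 CPM in parent (log2 fold change -0.62, SE 0.11, adjusted p = 0.000878). TRP1 rose as well (0.82), a call lost on leaving out any 1 of the 4 libraries (adjusted p of 0.0551 to 0.0886), and CAN1 and RPL28 are given above. Which allele or construct gives the reads of these loci was not analysed here.

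Values here and in the next groups are log2 fold changes of med10-1002 over parent. Of 62 amino acid synthesis genes 27 rose and 3 fell (median 0.15), with LEU2 given above, ARG8 of arginine synthesis at 0.91, HIS4 at 0.50 and HOM6 at 0.48. Of 29 sterol and fatty acid synthesis genes 11 rose and 1 fell (median 0.21), with the ergosterol enzymes ERG11, the target of azole drugs, at 0.72, ERG5 at 0.67, ERG7 at 0.61 and ERG1 at 0.53. Of 34 translation factor genes 9 (26.5%) rose and 2 fell, beside 20.8% and 16% of all transcripts tested, with TEF1 and TEF2, both of elongation factor 1 alpha, at 0.78 and 0.98, and EFT1 and EFT2, both of elongation factor 2, at 0.68 and 0.72. The genes of each pair are near-identical, so their reads could have been split. Of 17 genes of the acetate, lactate and glyoxylate paths 7 rose and 1 fell, with ICL1, isocitrate lyase, at 1.00, ACH1 at 0.64, DLD1, a lactate dehydrogenase, at 0.62 and ACS2 at 0.56. Of 38 genes of the respiratory chain and ATP synthase 10 (26.3%) rose and 4 (10.5%) fell (median 0.06), and with the correction for length, at a median length of 676 nt, 16 rose and 2 fell (median 0.19). Among the genes that rose were NDE1, an NADH dehydrogenase, at 0.86, ATP2 at 0.51, ATP1 at 0.49 and RIP1 at 0.47. With the correction for length, 6 of the amino acid synthesis genes, 4 of the translation genes, 2 of the acetate and glyoxylate genes and 2 of the sterol genes fell. The median of the acetate and glyoxylate genes was 0.15, and 0.07 with that correction. Without med10-1002 replicate 1, 10 of the amino acid synthesis genes, 6 of the sterol genes, 4 of the translation genes and 5 of the respiration genes rose, and without parent replicate 2 the counts were 12, 5, 4 and 5.

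Cell wall genes were lower more often than higher (40.5% and 18.9%), beside 16% and 20.8% of all transcripts tested. Of the mitotic genes 23.5% were lower, a small count nearer to the 16% of all. Of 37 cell wall genes 7 rose and 15 fell, with SCW11, DSE2 and EGT2, genes of daughter cell separation, at -0.85, -0.74 and -0.66, and SED1, a major wall protein, at -0.69. Of 17 mitotic genes, 4 fell and 0 rose by edgeR and by DESeq2, with 6 and 0 at an unadjusted p under 0.05. Among the 4 were the regulators MCM1 (-0.57) and NDD1 (-0.50) and the cyclin gene CLB1 (-0.49). Of 13 genes of G1 and Start 1 rose, the cyclin gene CLN1 (0.60), and 4 fell, among them SIC1 (-0.69), a cyclin kinase inhibitor, and SWI6 (-0.30). Of 21 DNA replication genes 1 rose, RNR2 (0.25), and 1 fell, SML1 (-0.73), the inhibitor of ribonucleotide reductase, while CDC45 and RNR1 were not called (-0.27 and -0.23). Of 11 histone genes, HTA2 rose (0.81), the centromeric CSE4 and the linker HHO1 fell (-0.42 and -0.42), and HTB2 was not called (0.29). Of 12 genes of the pheromone pathway 1 rose, the scaffold STE5 (0.32), and 4 fell, among them STE12, its transcription factor (-0.53), AGA1, an agglutinin gene (-0.50), and FUS1, given above. With the correction for length, 8 of the mitotic and 5 of the replication genes fell and 3 of the histone genes rose. Without med10-1002 replicate 1, 1 cell wall gene rose and 7 fell. With 1 of the 4 med10-1002 and parent libraries left out, the numbers higher and lower were 0 and 2 to 3 of the mitotic genes, 1 and 2 of the G1 genes, 0 and 1 of the replication genes, 1 and 0 to 1 of the histone genes and 0 and 1 to 2 of the pheromone genes. The calls of AGA1, HHO1, RNR2, STE5 and SWI6 ended on leaving out any 1 of the 4 med10-1002 and parent libraries (adjusted p of 0.053 to 0.356), and those of CLB1 and STE12 ended without med10-1002 replicate 1 (adjusted p of 0.0532 to 0.0546). The call of CSE4 ended without med10-1002 replicate 1 or parent replicate 1 or 2 (adjusted p of 0.0813 to 0.251).

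Genes of the RNA and protein machinery changed in small numbers. Over all transcripts tested, 20.8% rose and 16% fell. The SAGA and SWI/SNF genes lay near those shares (17.6% and 17.6%), and so did the share of polymerase I and III genes that fell (15.2%, with 12.1% higher). Of 24 RNA surveillance and decay genes 1 rose and 6 fell, with the exosome cofactor MPP6 at -1.08, the exosome subunits CSL4 and RRP45 at -0.52 and -0.35, and NAB3, which ends short noncoding transcripts, at -0.43. Of 17 SAGA and SWI/SNF genes 3 rose and 3 fell, with SGF29 and SNF11 at 0.48 and 0.37 and SNF12 and NGG1 at -0.47 and -0.45. Of 33 RNA polymerase I and III genes 4 rose and 5 fell, with RRN6 at 0.29, RPC53 at -0.53, RPA34 at -0.35 and BDP1 at -0.31. Of 32 proteasome genes 1 rose, RPN12 (0.33), and 3 fell, RPN4, the transcription factor of these genes (-0.35), PUP3 (-0.31) and RPT2 (-0.29). Of 14 genes of folding in the endoplasmic reticulum, CNE1, calnexin, and SIL1 rose (0.41 and 0.43) and 0 fell by edgeR, with 2 lower by DESeq2 and 4 at an unadjusted p under 0.05. JEM1 and ERO1 were not called (-0.29 and -0.22). With the correction for length, 9 of the polymerase I and III genes, 6 of the proteasome genes, 5 of the SAGA and SWI/SNF genes and 4 of the folding genes fell. With 1 of the 4 med10-1002 and parent libraries left out, the numbers higher and lower were 0 and 2 to 5 of the RNA decay genes, 1 and 1 to 2 of the SAGA and SWI/SNF genes and 0 to 1 and 1 to 3 of the polymerase I and III genes. In the same refits they were 0 to 1 and 0 to 2 of the proteasome genes and 0 to 1 and 0 of the genes of folding in the endoplasmic reticulum. The calls of BDP1, PUP3, RRN6 and SNF11 ended on leaving out any 1 of the 4 med10-1002 and parent libraries (adjusted p of 0.0622 to 0.178), and those of CNE1, RPA34, RPN4 and RPT2 ended without med10-1002 replicate 1 or parent replicate 1 or 2 (adjusted p of 0.0534 to 0.324). The calls of CSL4 and NGG1 ended without med10-1002 replicate 1 (adjusted p of 0.0589 to 0.0598), and those of RPN12 and RRP45 ended without med10-1002 replicate 1 or 2 or parent replicate 2 (adjusted p of 0.052 to 0.283). The call of NAB3 ended without parent replicate 2 (adjusted p = 0.0657), and that of SIL1 ended without med10-1002 replicate 2 or parent replicate 2 (adjusted p of 0.0892 to 0.134).

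The counts of the nutrient and transport groups stand beside 20.8% higher and 16% lower over all transcripts tested. Of 17 phosphate genes 6 rose and 5 fell, with GIT1 given above. The acid phosphatase PHO5 was at 0.75, the transcription factor PHO4 at -0.60 and the transporter PHO89 at -0.53. Of 20 amino acid permease genes 4 rose and 7 fell, with ALP1 and TAT1 at 1.00 and 0.74 and SAM3 and AGP2 at -0.36 and -0.33. Of 25 sulfate and methionine genes 2 rose and 6 fell, with MET10 at 0.64, MET14 at -0.69, and the transcription factors MET28 and MET4 at -0.63 and -0.49. Of 19 glucose sensing and repression genes 3 rose and 5 fell, with SUC2, invertase, at 0.43, the corepressor TUP1 at -0.56 and STD1 at -0.55. Of 13 efflux pump genes 4 rose and 3 fell, with QDR3 at 0.79, ATR1 at -0.67 and QDR2 given above. Of 17 inositol and phospholipid genes 1 rose, the ethanolamine kinase EKI1 (1.08), and 5 fell, with the inositol permease ITR1 at -0.50, the repressor OPI1 at -0.50 and CKI1 at -0.25. Of 18 purine and one-carbon genes 5 rose and 2 fell, with ADE2 at 1.18, ADE6 at 0.72, SHM1 at 0.42 and SHM2 at -0.57. Of 12 pyrimidine genes 2 rose, URA10 (1.19) and FCY2 (0.36), and 4 fell, among them FUR1 (-0.30) and URA3. Of 14 trehalose and glycogen genes, GLG1 (0.69) and TPS3 (0.35) rose and 0 fell by edgeR and by DESeq2, with 4 higher and 0 lower at an unadjusted p under 0.05, and GSY2 and PGM2 were not called (0.24 and 0.26). In the proline path, PUT4 and the transcription factor PUT3 rose (0.83 and 0.27) and PUT1 and PUT2, the enzymes of its breakdown, fell (-1.02 and -0.36). Of the Aro80 group, ARO80, the transcription factor, rose (0.34), its target ARO9 fell (-0.38), and ARO10 and ESBP6 were not called (-0.27 and -0.17). With the correction for length, 11 of the sulfate and methionine genes, 9 of the glucose genes and 2 of the Aro80 genes fell. Without med10-1002 replicate 1, 1 amino acid permease gene rose and 0 fell, against 2 higher and 1 lower without parent replicate 2. With 1 of the 4 med10-1002 and parent libraries left out, the numbers higher and lower were 2 to 5 and 2 to 3 of the phosphate genes, 2 and 2 to 5 of the sulfate and methionine genes and 2 to 3 and 3 to 5 of the glucose genes. In the same refits they were 1 and 1 to 3 of the inositol and phospholipid genes, 2 to 5 and 1 to 2 of the purine and one-carbon genes, 1 to 2 and 1 of the pyrimidine genes and 3 to 4 and 2 of the efflux pump genes. The corresponding numbers were 1 to 2 and 0 of the trehalose and glycogen genes, 1 and 1 to 2 of the proline genes and 0 to 1 and 0 of the Aro80 genes. The calls of AGP2, ARO9, CKI1, FUR1 and PUT3 ended on leaving out any 1 of the 4 med10-1002 and parent libraries (adjusted p of 0.0545 to 0.325), and those of ALP1, MET4 and SHM1 ended without med10-1002 replicate 1 (adjusted p of 0.0522 to 0.0644). The calls of FCY2 and TPS3 ended without med10-1002 replicate 1 or parent replicate 1 or 2 (adjusted p of 0.0502 to 0.166), and those of PUT2 and SAM3 ended without med10-1002 replicate 1 or 2 or parent replicate 1 (adjusted p of 0.0545 to 0.0988). The call of ARO80 ended without med10-1002 replicate 1 or 2 or parent replicate 2 (adjusted p of 0.0574 to 0.151), and that of OPI1 ended without med10-1002 replicate 1 or parent replicate 2 (adjusted p of 0.112 to 0.114).

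IMD4, of guanine nucleotide synthesis, had 629 and 559.6 CPM in med10-1002, against 220.5 and 198 CPM in parent (log2 fold change 1.51), and in the same path GUA1 rose (0.37) while IMD3 and IMD2 were not called (-0.13 and -0.46), with 0 of the 4 lower by edgeR and by DESeq2 and 1 at an unadjusted p under 0.05. ADE2 had 147 and 143 CPM in med10-1002, against 64.3 and 63.8 CPM in parent (log2 fold change 1.18). The TATA letters TATAAA or TATATA, on either strand, were searched within 300 bases before the start. They were found for 31 of the 38 coding transcripts that fell at least 2-fold (81.6%) and 56 of the 101 that rose at least 2-fold (55.4%). Over all 855 coding transcripts that fell the share was 66.0%, and over all 939 that rose it was 60.5%. Both lay near the 62.4% of all coding transcripts tested. The call of GUA1 ended without med10-1002 replicate 1 or parent replicate 1 or 2 (adjusted p of 0.0809 to 0.168).

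Set against med21-1002, the other middle-module mutant, med10-1002 had 1422 transcripts higher (24.9%) and 1278 lower (22.4%). The 2 comparisons share the med10-1002 libraries, so values are given side by side. SUTs stood far apart, with 210 of 369 higher and 12 lower in med10-1002 than in med21-1002 (median log2 fold change 0.98). Both mutants had a part in this gap. Against parent, the SUT median was 0.53 in med10-1002 and -0.44 in med21-1002, where 12 SUTs were higher and 120 lower. PUT4, the proline permease gene, had 27.6 and 25.1 CPM in med10-1002, 844 and 882 CPM in med21-1002 and 14.9 and 14.7 CPM in parent, a log2 fold change of -5.03, SE 0.10, adjusted p = 1.26e-11 against med21-1002. HXT7 had 54.9 and 57.9 CPM in med10-1002, 273 and 342 CPM in med21-1002 and 29.6 and 32.7 CPM in parent (-2.44, adjusted p = 4.05e-08). CTT1 had 62.6 and 60.1 CPM in med10-1002, 297 and 349.9 CPM in med21-1002 and 44.6 and 39.3 CPM in parent (-2.40, adjusted p = 3.75e-08). In these 3 genes the med21-1002 libraries lay far above both other strains. HSP26, a small heat shock protein gene, RTC3, the glycogen synthesis genes GLC3 and GSY1 and the transporter gene HXT6 were lower in med10-1002 than in med21-1002 by the same test, with log2 fold changes of -2.39, -2.31, -2.14, -2.13 and -2.07.

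ARO10, a decarboxylase gene of aromatic amino acid breakdown, had 2160 and 2109 CPM in med10-1002, 168 and 96 CPM in med21-1002 and 2603 and 2555 CPM in parent (log2 fold change 4.01, SE 0.20, adjusted p = 5.84e-08 against med21-1002). SEO1, a permease gene near a chromosome end, had 417 and 410.2 CPM in med10-1002, 29.6 and 26.3 CPM in med21-1002 and 299.8 and 282 CPM in parent (log2 fold change 3.88, SE 0.10, adjusted p = 1.15e-10). SUT692, opposite GAL2, had 30.2 and 29.9 CPM in med10-1002, 3.09 and 3.44 CPM in med21-1002 and 8.26 and 9.16 CPM in parent (log2 fold change 3.21, SE 0.18, adjusted p = 1.17e-07). Here the med21-1002 libraries lay below both other strains. SUT116, SUT633, SUT800, SUT429 and XUT_15R-8 were higher in med10-1002 than in med21-1002, with log2 fold changes of 3.46, 3.16, 3.07, 3.02 and 3.63. Some of the largest changes from parent also differed between the mutants. RPL22B had 168 and 171 CPM in med10-1002, against 34.4 and 24.4 CPM in med21-1002 (log2 fold change 2.52, adjusted p = 9.91e-08). GZF3 had 389 and 391 CPM in med10-1002, against 113 and 103 CPM in med21-1002 (log2 fold change 1.85, adjusted p = 4.05e-08). RPI1 had 27.8 and 27.5 CPM in med10-1002, against 94.5 and 99.6 CPM in med21-1002 (log2 fold change -1.81, adjusted p = 9.63e-08). TIS11 had 51.7 and 61.6 CPM in med10-1002, against 52.3 and 48 CPM in med21-1002, and did not pass the test between the mutants (0.17, adjusted p = 0.229).

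**Figure D5:**
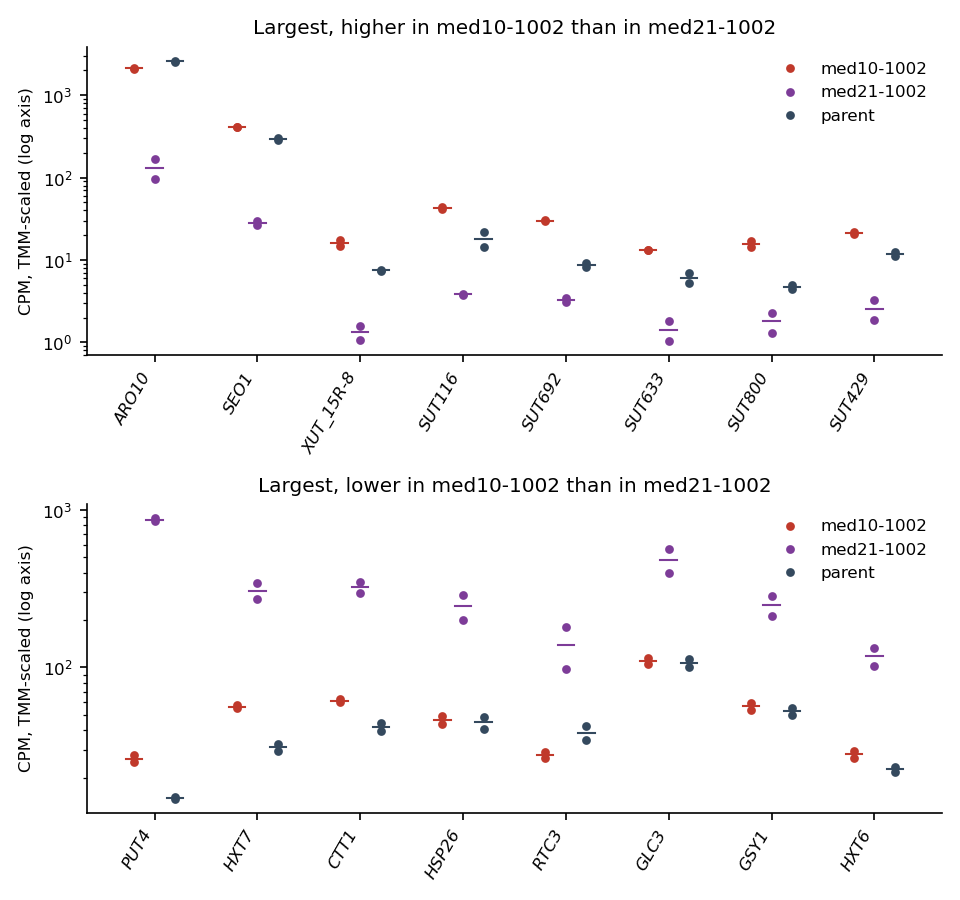
CPM on a log axis in each library (points) with the group mean (line) for the 8 transcripts with the largest difference in each direction between med10-1002 (red) and med21-1002 (purple), with parent (dark) beside them. PUT4 stands at 27.6 and 25.1 CPM in med10-1002, 844 and 882 CPM in med21-1002 and 14.9 and 14.7 CPM in parent.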

How the data were processed

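Per the labels' protocols, 4-thiouracil-labelled RNA was purified and made into NuGEN Ovation Universal libraries. The submitters' processing notes name STAR 2.3.0, SAMtools and HTSeq and the sacCer3 (R64) build, but no strand setting. The deposited values are whole-number read counts per annotated transcript, with tallies of reads given to no transcript, which were left out of library sizes and tests. Those without a feature were 32.7% to 36.3% of the reads of the 6 libraries fitted. The 6030 transcripts were matched to RefSeq gene names by systematic name (4842 of 4928 coding). Counts of 6 libraries (parent, med10-1002 and med21-1002, 2 each) were fitted with edgeR 4.0.16 in R 4.3.3 (filterByExpr with a minimum count of 10, TMM scaling, quasi-likelihood test, 3 residual degrees of freedom, Benjamini-Hochberg adjustment over 5701 transcripts). The SE is the log2 fold change divided by the square root of F. DESeq2 1.42.0 was an alternative. The steps were tested on simulated data. Genes named were, per direction, the 15 coding and 4 noncoding transcripts with the largest called change, no overlap of libraries and a mean log2 CPM of 3 or more, the 4 with the smallest p, the 2 to 4 members of each list with the smallest p, all members of lists of up to 8, and 8 per direction against med21-1002. Other genes are said to be chosen later. Some genes that this rule names are not reported here. The comparison and the gene lists were chosen with earlier results of these data known. Promoter letters were searched in the 300 bases before each annotated start, on both strands.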

Additional observations from a re-analysis of the deposited data

Results flagged for a closer look

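Reads outside the transcript counts took a larger share in med10-1002 than in parent. Reads assigned to no annotated transcript were 34.7% in med10-1002 replicate 1 and 34.7% in med10-1002 replicate 2, against 32.7% and 33.5% in parent. Reads set aside as ambiguous between transcripts were 0.181% in med10-1002 replicate 1 and 0.193% in med10-1002 replicate 2, against 0.136% and 0.143% in parent. These reads have no position in the files and entered no test.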

How the results depend on the processing

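Against parent, the 2102 calls (1188 higher, 914 lower) became 434 (283 and 151) with all 8 libraries in the fit and 1015 (662 and 353) against a 1.2-fold threshold, and 1487 were lower with only the 4 libraries compared. Leaving out 1 library gave 816 to 2997 calls, 563 to 1514 higher and 253 to 1486 lower, and the highest counts came without a med21-1002 library. Against med21-1002, the 2700 calls (1422 higher, 1278 lower) became 1150 (611 and 539) with all 8 libraries, and 1634 against a 1.2-fold threshold, with 661 lower. Leaving out 1 library gave 1568 to 3278 calls, 943 to 1581 higher and 625 to 1697 lower. Every call of either comparison that was tested kept its direction under every alternative run. For the calls against parent this was nearly fixed in advance, since the libraries of the 2 strains did not overlap in any of them. Of the named genes called against parent, 223 in all, 122 were not called with all 8 libraries and 45 against a 1.2-fold threshold. AGA1, not called against med21-1002, ran from -0.49 to 0.21 in that comparison (log2) when 1 library was left out, with the sign turned without med21-1002 replicate 1. Library size alone, upper-quartile scaling, no filter, a minimum count of 50, a correction for length and DESeq2 moved neither total of calls by over 1.5 times. The share of calls against parent that were higher was 56.5%, and 65.2% with all 8 libraries. Same-numbered libraries deviated together little (correlations of 0.123, 0.059 and -0.081), which does not tell whether they shared a batch. The replicate block gave 2127 calls against parent and 2731 against med21-1002. Low counts limit the noncoding classes: 68 of 169 CUTs were not tested.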
